A study of Salvelinus alpinus with 144 samples.

Results

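The messenger RNA of PL×PL embryos of Arctic charr was compared between 200 and 150 τs, across the whole transcriptome. PL×PL embryos have both parents from the planktivorous limnetic (PL) morph of Lake Thingvallavatn. They were taken by their label from a count table of 72 whole embryos, of which 18 were PL×PL. The other 54 embryos belonged to SB×SB, from the small benthic (SB) morph, and to the hybrids of both directions, SB×PL and PL×SB, in whose names the mother comes first. The study was set up to ask how gene expression and its variability diverged between the morphs and were inherited in hybrids.

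The PL×PL embryos were 9 at 200 τs and 9 at 150 τs. All were offspring of wild-caught fish, carried no genetic change or treatment, and came from 3 families (H1509, H1513 and H1516). Each family gave 3 siblings at each stage, with the letters A, B and C. In the labels each letter also carries a sequencing batch number, so every family and stage has 1 embryo of each number. The study describes batches for the miRNA libraries only, and reports that the mRNA libraries were sequenced together. The eggs were reared together in cold, dark, flowing water. Age was expressed in tau-somite units (τs), 1 unit being the time an embryo needs to add a pair of somites at the temperature of its water. At 150 τs the pharyngeal skeleton begins with its jaw cartilages, and by 200 τs head cartilage is largely laid out and bone is starting in the jaws. Siblings share parents, so the p-values measure the spread between embryos of these 3 families rather than between many families. In whole embryos, more cells of a type and more RNA per cell cannot be told apart.

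Between these stages a salmonid embryo turns from laying down its body plan to building working organs. Muscle fibres fill with sarcomeres, in which titin and nebulin order the myosin and actin filaments. Cartilage cells surround themselves with a matrix of fibrillar collagens, matrilins and proteoglycans, and neurons form synapses. As tissues differentiate, fewer cells divide, and dividing cells are the ones that most need new DNA, new ribosomes and new protein. Salmonids also carry many duplicated genes from an ancestral genome doubling, and reads of near-identical copies can be split or lost in counting.

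Total counts were 11969598 to 16307908 per embryo (median 15015448) at 200 τs and 12837417 to 16547823 (median 16050381) at 150 τs. Of 42433 genes, the 40311 with at least 10 reads over all 72 libraries were tested. Spearman's rho between libraries was 0.947 to 0.989 within a stage and 0.897 to 0.959 between stages, a description across genes. The first principal component held 49.4% of the variance and separated the stages without overlap, with scores of 30.4 to 63.9 at 200 τs and -66.7 to -31.8 at 150 τs. The second (11.6%) set embryos B and C of H1509 at 200 τs apart, at 37.8 and 45.8, against -35.2 to 15.9 in the other embryos of that stage. Without these embryos, the calls between stages of lyz and apob were lost.

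The stages differed in the level of 20115 genes, which is 49.9% of those tested. Values are CPM, the reads of a gene per 1000000 reads of its library, scaled by TMM normalization, and tests are edgeR's quasi-likelihood tests with the family as a block and Benjamini-Hochberg adjustment, called at an adjusted p under 0.1. Of the called genes, 11223 were higher (27.8%) and 8892 were lower (22.1%) at 200 τs. The larger changes were mostly gains, since 4073 genes rose at least 2-fold (10.1%) and 575 fell at least 2-fold (1.43%). In 3072 genes (7.62%) all 9 embryos at 200 τs lay above all 9 at 150 τs, and in 2136 genes (5.3%) all lay below. Of all calls, 19306 had the same sign in all 3 families, which the choice of called genes by itself favours. Without embryos B and C of H1509 at 200 τs, 9080 genes were called higher and 9150 lower. Most genes have only a LOC identifier. Among the 4566 tested genes with a symbol, from which the gene groups were drawn, 947 rose (20.7%) and 1723 fell (37.7%), and the median log2 change was -0.11, against 0.04 over all genes. Non-overlapping stages were found in 6.04% of the genes with a symbol for gains and 10.8% for losses.

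Genes of the contracting muscle fibre rose, and mylpf had the highest level of the named genes. Of 7 contraction genes, 6 rose and 0 fell, with a median log2 change of 1.82, and 5 of them did not overlap between stages. mylpf encodes the regulatory light chain of fast skeletal myosin. It had 5989, 8067 and 11025 CPM (lowest, median and highest of 9 embryos) at 200 τs, against 952, 2031 and 3179 CPM at 150 τs. Every embryo at 200 τs was above every embryo at 150 τs (log2 change 2.02 ± 0.17 SE, 4.05-fold, adjusted p = 1.16e-08). The titin gene ttn, for the giant spring of the sarcomere, had 489, 950.3 and 1401 CPM at 200 τs and 84.9, 223 and 315 CPM at 150 τs (2.12 ± 0.24). For neb, whose product sets the length of the thin filament, they were 715, 1142 and 1809.6 CPM at 200 τs and 122.7, 295 and 513 CPM at 150 τs (1.97 ± 0.23). In both genes the stages were again fully separate. Embryo A was the lowest of the 3 siblings in ttn and neb in every family at both stages. In ttn, embryos A had 489 to 635 CPM at 200 τs and 84.9 to 171 CPM at 150 τs. Embryos B had 1043 to 1401 CPM at 200 τs and 219 to 245 CPM at 150 τs. Embryos C had 944 to 1133 CPM at 200 τs and 229 to 315 CPM at 150 τs. The stages were thus separate within each letter. The exceptions were actc1, the cardiac actin that embryonic muscle also uses, which rose by only 0.24 ± 0.08, and tnnt1 of slow muscle, which was near 0.3 CPM at both stages and was not called. The summed level of the 7 genes was 8380.65 to 13776.7 CPM at 200 τs and 1385.93 to 3874.81 CPM at 150 τs.

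Some genes of muscle metabolism, named for the size of their change rather than as a group, also rose. ampd1, the muscle AMP deaminase, had 2.37, 3.12 and 5.72 CPM at 200 τs against 0.121, 0.189 and 0.434 CPM at 150 τs, a 15.4-fold rise (3.94 ± 0.21, adjusted p = 9.79e-12). phka1, a subunit of the muscle phosphorylase kinase that starts glycogen breakdown, had 38.5, 43.1 and 61.9 CPM at 200 τs and 0.839, 6.98 and 8.93 CPM at 150 τs (2.87 ± 0.23). slc25a4, the mitochondrial ADP/ATP carrier of muscle, reached 385 to 628 CPM at 200 τs, against 31.5 to 146 CPM at 150 τs (2.52 ± 0.19). None of the 3 genes overlapped between stages, which the rule that named ampd1 and phka1 required. LOC111981097, named parvalbumin-7 in the study and chosen here after its values were seen, belongs to a family of calcium-binding proteins. The tissue in which it was made was not tested. LOC111981097 had 17.9, 23.6 and 42.6 CPM at 200 τs and 1.30, 1.80 and 2.83 CPM at 150 τs (3.75 ± 0.14). Of 3 genes that start the muscle programme, 2 rose, mef2c and a gene that averaged under 1 CPM. myog, for the myogenin that drives fusion and differentiation, was at 87.8 CPM on average at 200 τs and 77.7 CPM at 150 τs and was not called (0.16 ± 0.13), while mef2c, its partner factor, rose 1.97-fold (0.98 ± 0.12) with no overlap.

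**Figure D1:**
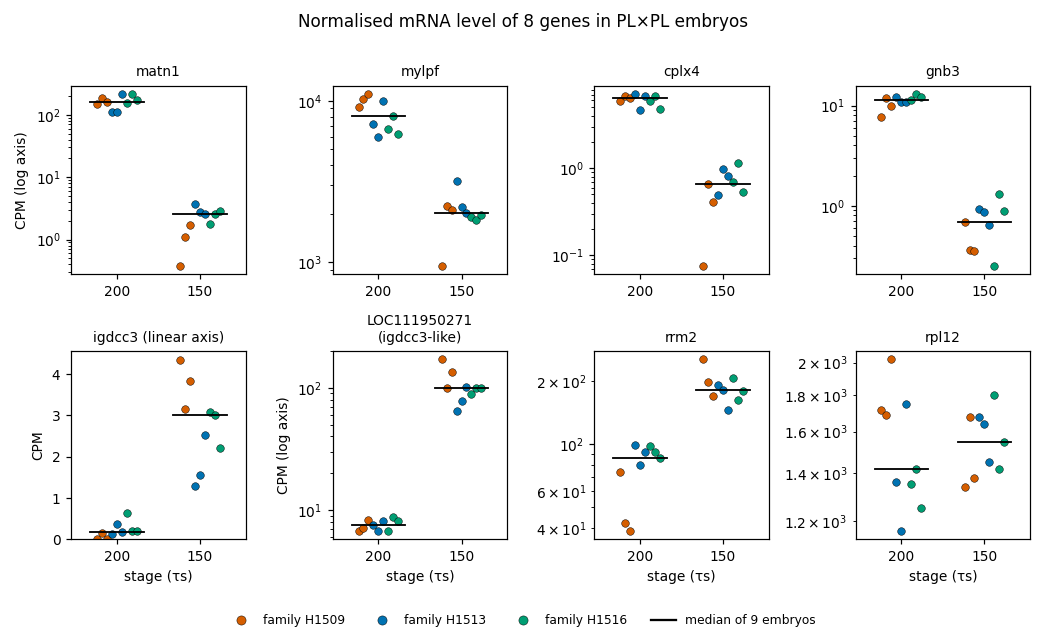
CPM of 8 genes in each PL×PL embryo, at 200 τs (left) and 150 τs (right) in each panel, on log axes except for igdcc3, whose axis is linear; points are embryos, coloured by family, and the line is the median of 9. In matn1, mylpf, cplx4 and gnb3 all embryos at 200 τs lie above all at 150 τs, in igdcc3, LOC111950271 and rrm2 all lie below, and in rpl12 (1161 to 2021 CPM and 1336 to 1804 CPM) the stages overlap.

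The largest rise of any named gene belonged to cartilage. matn1 encodes matrilin-1, a filament-forming protein of cartilage matrix. It had 111, 162 and 215 CPM at 200 τs and 0.381, 2.53 and 3.72 CPM at 150 τs, so that the lowest embryo at 200 τs was far above the highest at 150 τs. The change was 6.26 ± 0.24 on the log2 scale (76.8-fold, adjusted p = 8.51e-14), and the 3 families gave 7.22, 5.59 and 6.23. Of 8 cartilage matrix genes, 5 rose and 1 fell, with a median of 0.81. col11a1 and col11a2, for chains of the collagen that sets fibril width in cartilage, were already abundant at 150 τs. col11a1 had 844, 1175 and 1383 CPM at 200 τs and 479.5, 529 and 835 CPM at 150 τs (0.93 ± 0.11), and col11a2 rose by 1.38 ± 0.15. epyc, for the small proteoglycan epiphycan, had 166, 209.7 and 287 CPM at 200 τs and 71.5, 91.2 and 102 CPM at 150 τs (1.29 ± 0.10). The stages did not overlap in any of these 4 genes. hapln3, a link protein that ties proteoglycans to hyaluronan, fell by 0.41 (SE 0.09), although its ranges of 18.1 to 27.0 CPM at 200 τs and 24.3 to 32.9 CPM at 150 τs overlapped.

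The regulators of the jaw and pharyngeal skeleton went the other way. Of 7 such genes, 5 fell and 1 rose, with a median of -0.31. nkx3-2, which marks the jaw joint in zebrafish, had 11.9, 15.5 and 17.8 CPM at 200 τs against 16.4, 20.9 and 26.1 CPM at 150 τs (-0.53 ± 0.09, adjusted p = 9.74e-05). hand2, needed for the lower jaw and the heart, fell by 0.49 (SE 0.10), and sox5, a partner of the main cartilage factor, fell by 0.23 (SE 0.08). The stages overlapped in all 3. The fall of barx1, a factor of arch mesenchyme, was 0.36 (SE 0.14) and was no longer called without H1509. That of sox5 was not called without H1516. runx3, of the Runx factors of maturing cartilage and bone, was the gene that rose (0.57 ± 0.09). Its ranges were 8.45 to 13.6 CPM at 200 τs and 6.55 to 8.54 CPM at 150 τs.

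Matrix genes outside cartilage also rose, 7 of 9, with 1 that fell and a median of 0.80. lamb2, a laminin chain of mature basement membranes such as those of nerve-muscle junctions, had 76.8, 110.3 and 127 CPM at 200 τs and 28.8, 49.6 and 62.7 CPM at 150 τs (1.16 ± 0.13). lamb1, the chain that predominates in early embryos, fell by 0.30 (SE 0.09) with overlapping ranges, and was not called without H1516. col6a3, a collagen of muscle and connective tissue, rose by 1.05 ± 0.14. loxl4, an enzyme that cross-links collagen, rose by 1.34 ± 0.19, with 6.95, 10.7 and 19.6 CPM at 200 τs and 2.14, 4.45 and 6.17 CPM at 150 τs. col6a3 and loxl4 were fully separate between stages. The 1 gene of bone mineral on the lists, bglap, had 0 CPM in all embryos at 200 τs and averaged 0.00662 CPM at 150 τs, and gave no measure of bone matrix.

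All 10 genes of synapses and transmitter synthesis rose, with a median of 1.16, and 6 of them were without overlap. cplx4 and cplx3, the complexins of the ribbon synapses of retinal neurons, rose most. cplx4 had 4.65, 6.38 and 7.10 CPM at 200 τs and 0.0763, 0.667 and 1.14 CPM at 150 τs (3.21 ± 0.22, 9.24-fold, adjusted p = 3.29e-10). cplx3 rose by 1.80 ± 0.14. gad2, which makes the inhibitory transmitter GABA, had 11.3, 13.9 and 17.7 CPM at 200 τs and 4.02, 4.81 and 6.76 CPM at 150 τs, a 2.83-fold rise. The glutamate receptor gene gria2 rose by 1.10 ± 0.11, and each of these genes was fully separate between stages. The smallest gains were in th and chat, the enzymes of dopamine and acetylcholine synthesis, at 0.54 ± 0.15 and 0.60 ± 0.15. Of 28 ion channel genes, 18 rose and 1 fell (median 0.86). The calcium channel subunits cacnb3 and cacna2d2 rose by 2.18 ± 0.21 and 1.90 ± 0.16, and the GABA receptor subunit gabrd by 1.32 ± 0.15. Of 38 genes in a mixed group of receptors, 18 rose and 2 fell (median 0.37), and 22 of the 38 averaged at least 1 CPM. That group was not limited to receptors for amines and neuropeptides.

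Genes of early neurogenesis showed no common direction. Of 10 progenitor and proneural genes, 2 rose and 5 fell, with a median of -0.09, near the 20.7% and 37.7% of all genes with a symbol. Some factors that commit progenitors were among the 5 that fell. atoh7, which starts the first retinal neurons, had 9.12, 11.6 and 13.8 CPM at 200 τs and 10.4, 17.6 and 23.9 CPM at 150 τs (-0.59 ± 0.13), and atoh1, of hindbrain and hair cell precursors, fell by 0.79 (SE 0.23), both with overlapping ranges. neurod6, a factor of neurons that have left the cycle, rose 3.82-fold without overlap, with 9.54, 12.6 and 15.8 CPM at 200 τs and 2.18, 2.91 and 5.95 CPM at 150 τs (1.93 ± 0.17). Without H1516 the count of falls was 3 of 10.

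In the eye, gnb3, the beta subunit of the transducin of cone photoreceptors, gave the largest gain. It had 7.69, 11.4 and 13.004 CPM at 200 τs and 0.252, 0.687 and 1.32 CPM at 150 τs (3.98 ± 0.18, 15.8-fold, adjusted p = 1.45e-12). pde6a of rods also rose (1.79 ± 0.31) at a low level, with averages of 0.568 CPM at 200 τs and 0.157 CPM at 150 τs, whereas rlbp1, of the cells that recycle the pigment, was not called (-0.17 ± 0.16). Both lens crystallin genes rose. cryaa had 15.01, 24.8 and 35.2 CPM at 200 τs and 6.64, 10.3 and 18.5 CPM at 150 τs (1.08 ± 0.15), with some overlap. The retinal factors rax and irx6 rose by 2.14 ± 0.20 and 1.29 ± 0.14, both without overlap.

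Proliferation genes fell together. Of 39 genes of the cell cycle and DNA replication, 37 fell and 0 rose, with a median of -0.75, and in 31 of them the stages did not overlap. rrm2, the subunit of ribonucleotide reductase that is made for DNA synthesis, had 38.7, 85.9 and 99.5 CPM at 200 τs and 145, 181 and 253 CPM at 150 τs (-1.30 ± 0.16, adjusted p = 1.26e-06). Its highest embryo at 200 τs was below its lowest at 150 τs. skp2, which tags cell cycle inhibitors for breakdown, had 16.2, 26.1 and 34.1 CPM at 200 τs and 40.02, 53.7 and 62.2 CPM at 150 τs (-1.13 ± 0.11). mcm7, of the helicase that opens DNA for replication, had 78.6, 136 and 149.8 CPM at 200 τs and 199, 211 and 219.6 CPM at 150 τs (-0.77 ± 0.10). spc25 of the kinetochore, dut of nucleotide synthesis and fen1 of lagging-strand replication fell by 0.98, 0.97 and 0.65, each without overlap. Of 62 DNA repair genes, 43 fell and 1 rose (median -0.31). Those that fell most, ercc6l, exo1 and ung, act at mitosis or at the replication fork, and fell by 0.99, 0.99 and 0.97. In 35 of the 39 cell cycle genes the fall was largest in H1509, where the median was -1.01, against -0.56 in H1513 and -0.64 in H1516.

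Genes that make ribosomes fell, while the 13 cytosolic ribosomal protein genes with a symbol were not called. Of 62 ribosome biogenesis and RNA exosome genes, 58 fell and 1 rose (median -0.53), and 36 did not overlap. ncl, for the abundant nucleolar protein nucleolin, had 1174, 1601 and 2064 CPM at 200 τs and 2043, 2391 and 2853 CPM at 150 τs (-0.58 ± 0.11). nat10, which modifies ribosomal RNA, had 63.8, 98.9 and 112 CPM at 200 τs and 146, 161 and 186 CPM at 150 τs (-0.80 ± 0.11), and utp4 of the small subunit processome fell by 0.92 (SE 0.12). dkc1, the pseudouridine synthase dyskerin, fell by 0.89 (SE 0.22). Its ranges overlapped through 1 embryo at 150 τs, B of H1513, at 42.2 CPM. Of 13 cytosolic ribosomal protein genes, 0 passed the test in either direction, and their median was 0.00. rpl12 had 1161, 1418 and 2021 CPM at 200 τs and 1336, 1546 and 1804 CPM at 150 τs (-0.03 ± 0.10, adjusted p = 0.824). In all 13 the change was highest in H1509, with a median of 0.30, against -0.13 in H1513 and -0.22 in H1516.

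**Figure D2:**
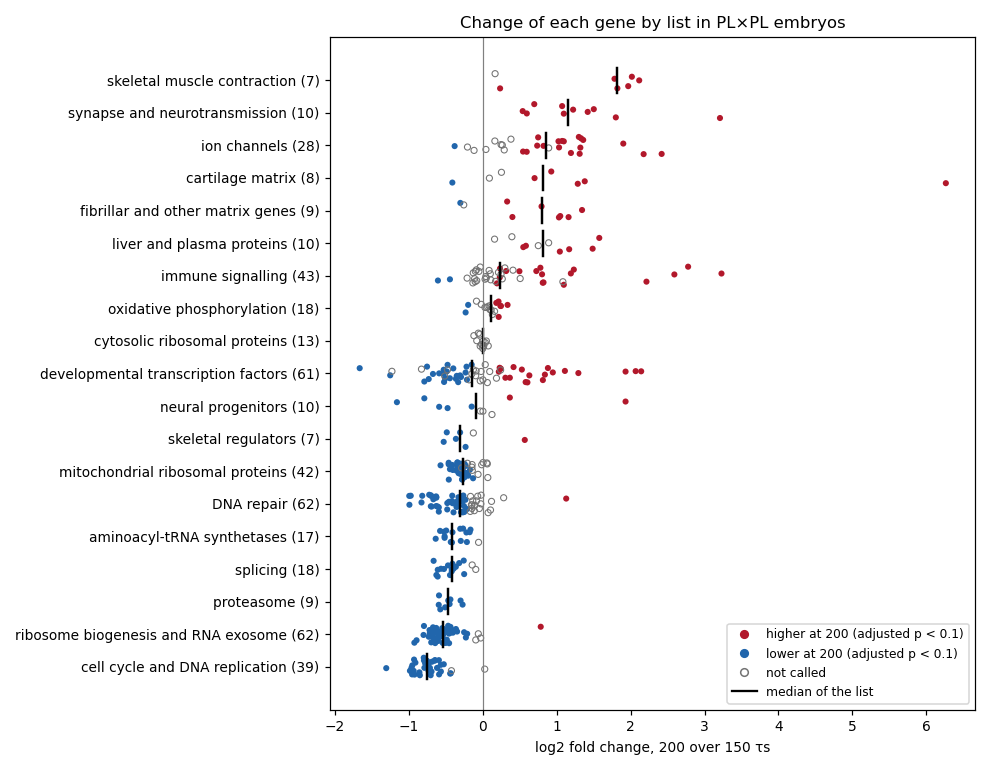
Log2 change from 150 to 200 τs in PL×PL for every measured member of each gene group (filled where called, red for higher and blue for lower, open where not called), with the group median as a black bar and the number of members in parentheses. The contraction genes (median 1.82) and synapse genes (1.16) lie to the right, and cell cycle (-0.75) and ribosome biogenesis (-0.53) lie to the left.

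Other parts of the machinery for making and removing protein fell too, by smaller amounts. Of 17 aminoacyl-tRNA synthetases, which load tRNAs, 16 fell and 0 rose (median -0.41). Of 9 proteasome genes, 9 fell (median -0.47), among them psma5 with 169, 205 and 237 CPM at 200 τs and 257, 293 and 354 CPM at 150 τs (-0.59 ± 0.09). Of 18 splicing genes, 16 fell (median -0.42), and of 42 mitochondrial ribosomal protein genes, 31 fell (median -0.26), with 0 that rose in either group. tcp1 and cct7, subunits of the chaperonin that folds actin and tubulin, fell by 0.42 (SE 0.08) and 0.40 (SE 0.06) without overlap, from among 27 chaperone genes of which 12 fell and 6 rose. ranbp1, of nuclear transport, and lmnb1, of the nuclear lamina, were among the genes that lost most CPM. ranbp1 had 155, 233.8 and 291 CPM at 200 τs against 369, 420.0 and 517 CPM at 150 τs (-0.92 ± 0.11). Of 18 genes of oxidative phosphorylation, 6 rose and 2 fell (median 0.11).

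The steepest falls among the named genes were in igdcc3, a receptor-like protein of the immunoglobulin superfamily, and in 2 genes like it. igdcc3 had 0, 0.176 and 0.633 CPM at 200 τs and 1.30, 3.01 and 4.35 CPM at 150 τs (-3.68 ± 0.35, 12.8-fold, adjusted p = 5.69e-08). The study names LOC111950271 and LOC111956165 as igdcc3-like, and both were looked up after their values were seen. LOC111950271 had 6.79, 7.56 and 8.78 CPM at 200 τs and 64.3, 99.9 and 171 CPM at 150 τs (-3.74 ± 0.13, 13.3-fold). LOC111956165 had 0.377, 0.796 and 1.09 CPM at 200 τs and 5.21, 9.34 and 18.5 CPM at 150 τs (-3.69 ± 0.19, 12.9-fold). The stages were fully separate in all 3 genes, and the 3 changes were of like size. Where reads match more than 1 of the 3, the counts are uncertain.

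Among developmental transcription factors, 19 of 61 rose and 25 fell, with a median of -0.15. Of all tested genes with a symbol, 20.7% rose and 37.7% fell, with a median of -0.11, so falls were not particular to this group. nfix, which is not among the 61 and was named for the size of its rise, is a nuclear factor I gene. In mice it switches muscle and brain from embryonic to fetal programmes, and here it rose by nearly the same amount in each family. It had 24.6, 33.5 and 51.8 CPM at 200 τs and 2.61, 3.98 and 5.48 CPM at 150 τs (3.21 ± 0.11, 9.23-fold, adjusted p = 2.62e-14), and the families gave 3.17, 3.26 and 3.18. tfap2a, a neural crest and epidermal factor, rose by 0.58 ± 0.07 without overlap. sp8, which acts in the growth of the limb bud and the forebrain, had 12.8, 17.6 and 19.7 CPM at 200 τs and 33.4, 39.1 and 44.1 CPM at 150 τs (-1.16 ± 0.07). nkx2-6, a factor of pharyngeal pouches and heart, had 0.406, 0.870 and 1.14 CPM at 200 τs and 1.61, 2.76 and 4.43 CPM at 150 τs (-1.66 ± 0.20), again without overlap. wfikkn1, a secreted inhibitor of growth factors such as myostatin, fell 3.04-fold (log2 SE 0.16), less in H1509 (by 0.96) than in H1513 (by 1.96) and H1516 (by 1.98), and family by time was not called for it (adjusted p = 0.221 by edgeR's quasi-likelihood test with Benjamini-Hochberg adjustment). Of 4 Hox genes, 3 fell and 0 rose, and among them hoxb2 fell by 0.44 and hoxb8 fell by 0.35. Of 3 heart genes, gata5 and hand2 fell and gata4 was not called.

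Genes of the liver, blood and body surface rose in part, and several of these gains were uneven between families or embryos. Of 10 genes for plasma proteins, 6 rose and 0 fell (median 0.82), and in all 10 the change was highest in H1509. c8g, of the complement attack complex, had 4.53, 11.97 and 18.01 CPM at 200 τs and 3.28, 4.54 and 5.41 CPM at 150 τs (1.17 ± 0.19). ttr, the carrier of thyroid hormone, rose by 1.58 ± 0.39. It had 0.862, 2.26 and 7.03 CPM at 200 τs and 0.252, 0.909 and 1.86 CPM at 150 τs, with overlap. apob, the scaffold of plasma lipoproteins, had 133, 274 and 444 CPM at 200 τs and 85.4, 154 and 312 CPM at 150 τs (0.58 ± 0.24, adjusted p = 0.0519), a call that was lost without H1509, without H1513 and without embryos B and C of H1509 at 200 τs. Both fgb and c9 varied widely between embryos, and their standard errors were 0.70. In H1509 at 200 τs, embryos A, B and C had 1.86, 99.7 and 114 CPM of c9 and 9.82, 358 and 271 CPM of fgb. The high values of that family in these genes thus came from B and C alone. Of 7 blood genes, 5 rose and 0 fell. Among those that rose were mpeg1 of macrophages (0.75 ± 0.17) and, at an average under 1 CPM, rag1, which rearranges antigen receptor genes (1.63 ± 0.24). The summed level of the 7 overlapped between stages, with medians of 46.5 CPM at 200 τs and 47.8 CPM at 150 τs. fech, of haem synthesis, had 22.1, 24.5 and 35.1 CPM at 200 τs and 15.5, 32.0 and 64.9 CPM at 150 τs, and was not called. The haem synthesis genes abcb10 and hmbs, of another group given further below, fell. The call of ikzf1 was lost without H1509 and without H1513. That of lyz was lost without H1509, without embryos B and C of H1509 at 200 τs (0.31, adjusted p = 0.201 by edgeR's quasi-likelihood test), with no replicate block and in the fit of all 72 libraries. Of 43 immune signalling genes, 17 rose and 2 fell (median 0.23), but only 10 rose without H1509. tnfaip3, a brake on inflammatory signalling, rose by 0.78 ± 0.13 without overlap, while myd88 and traf6, adaptors of the Toll-like receptors, fell by 0.44 and 0.61. In the epidermis, grhl3, a factor of the skin barrier, rose by 0.96 ± 0.16 and evpl, for envoplakin, by 0.49 ± 0.15, the second not called without H1516. Of 6 genes of ionocytes and kidney transport, 3 rose and 2 fell (median 0.17). Among those that rose was atp6v0a1, of the proton pump that acidifies vesicles and works in ionocytes. It had 46.8, 59.6 and 70.2 CPM at 200 τs and 16.4, 19.1 and 23.6 CPM at 150 τs (1.52 ± 0.09). foxi1, the ionocyte factor, rose by 0.84 ± 0.15. Other members went down. slc12a3, a sodium chloride cotransporter, had 19.6, 25.8 and 32.3 CPM at 200 τs and 15.7, 36.9 and 44.7 CPM at 150 τs, with overlap. The lowest log2 change of the group was -1.25, so the group had no common direction.

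Among the genes called between stages the families mostly changed in the same direction, which the calling itself favours, but not by the same amount. Family by time was called for 302 genes, 0.749% of those tested (525 with the letter of the embryo as a term). In 295 of the 302, H1509 lay farthest from the others, above in 158 and below in 137. The median size of the log2 change was 0.636 in H1509, 0.424 in H1513 and 0.435 in H1516. It was taken over the genes called between stages that averaged at least 1 CPM. H1509 also held the extreme scores of the first principal component. These were -66.7 in embryo A at 150 τs, and 63.9 and 61.9 in B and C at 200 τs. The next scores were -52.7 (H1516A) and 44.9 (H1513C). Family by time was not refitted without these embryos of H1509, so whether its larger changes rest on them was not tested. Without H1509, 0 genes were called for family by time. ero1a, the endoplasmic reticulum oxidase that forms disulphide bonds and is induced by low oxygen in mammals, had the smallest p of the named genes. Its 3 siblings of H1509 had 69.4, 113 and 138 CPM at 200 τs, against 5.27 to 9.49 CPM in the 6 other embryos of that stage and 4.15 to 7.48 CPM in all 9 embryos at 150 τs. The log2 change was 4.14 in H1509, 0.47 in H1513 and 0.52 in H1516 (family by time, adjusted p = 0.000153). tsc22d2, a member of the TSC22 domain family, had 66.6, 76.6 and 105 CPM in H1509 at 200 τs, against 24.5 to 33.9 CPM in the other families at 200 τs (adjusted p = 0.00190), and its call between stages was lost without H1509 and with siblings summed per family. acp7, an acid phosphatase, changed by 1.01 in H1509, -0.16 in H1513 and -0.19 in H1516, and was not called between stages with all 3 families (0.21 ± 0.14). It was called in each fit with 1 family left out, lower without H1509 (-0.22) and higher without H1513 (0.39) or H1516 (0.42).

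**Figure D3:**
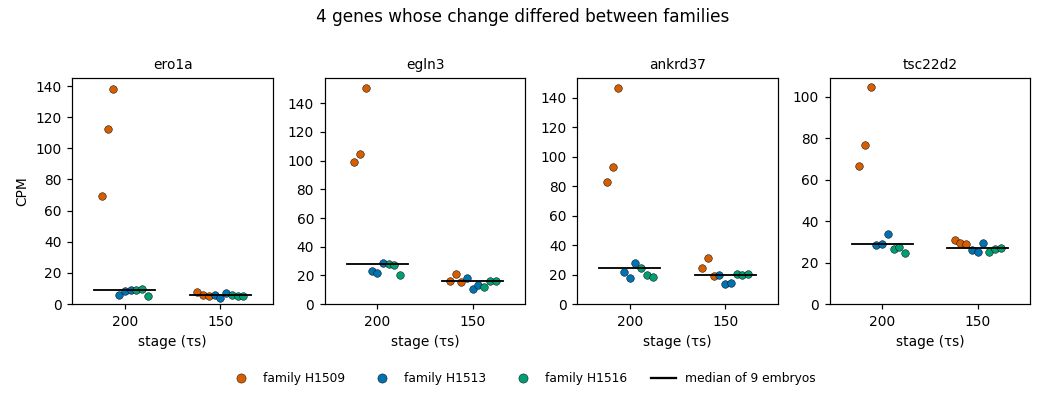
CPM of ero1a, egln3, ankrd37 and tsc22d2 in each PL×PL embryo, with 200 τs left of 150 τs, on linear axes; points are coloured by family and the line is the median of 9. The 3 embryos of H1509 at 200 τs lie above every other embryo in all 4 panels, for example at 69.4 to 138 CPM in ero1a.

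A group of genes that are induced by low oxygen in mammals was put together after ero1a, egln3 and others had been seen, so its values are a description only. Of 14 such genes, 11 rose and 0 fell between stages, with a median of 0.66. The family medians were 1.25 in H1509, 0.30 in H1513 and 0.33 in H1516, and the change was highest in H1509 for 13 of the 14. Family by time was called for 7 of them. egln3, an oxygen-sensing prolyl hydroxylase that is itself induced by low oxygen, had 99.3, 104.6 and 150.4 CPM in H1509 at 200 τs, against 20.4 to 28.4 CPM in the other families at 200 τs and 10.8 to 21.2 CPM in all families at 150 τs. It was called between stages (1.44 ± 0.24) and for family by time (adjusted p = 0.00313). The changes of ankrd37, ak4, ppp1r3c, plod1 and znf395 were also highest in H1509. ankrd37 changed by 2.10 in H1509, 0.48 in H1513 and 0.04 in H1516, and its call between stages was lost without H1509, as was that of ak4. cited2, which rose by 0.19, and insig2, epas1 and pfkfb3, which were not called, had the smallest changes of the group.

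**Figure D4:**
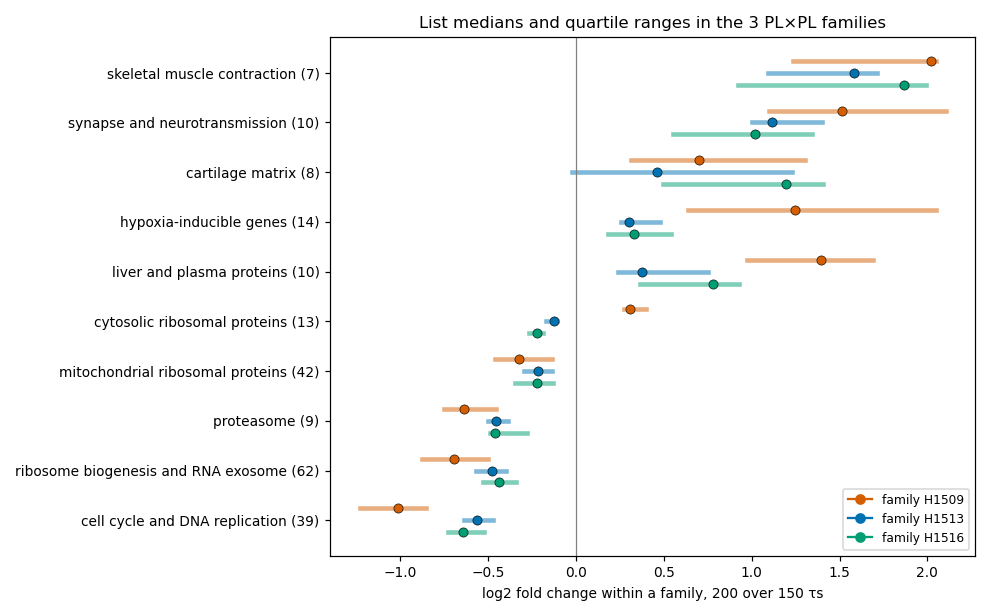
Median log2 change from 150 to 200 τs (points) and quartile range over the genes (bars) of 10 gene groups in H1509, H1513 and H1516 of PL×PL. H1509 lies farthest from 0 for the cell cycle (-1.01, -0.56 and -0.64) and for plasma proteins (1.40, 0.38 and 0.78), and alone above 0 for cytosolic ribosomal proteins (0.30, -0.13 and -0.22).

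The change between stages in PL×PL was then set against the same change in the other cross-types, in 1 model over all 72 libraries with the family as a block. Against SB×SB, 28 genes were called for a different change, 0.0695% of those tested, and the log2 change was higher in PL×PL for 23 of them and lower for 5. An unadjusted p under 0.05 was found in 4739 genes, and DESeq2 called 495. Against SB×PL, 0 genes were called (0%) and 1968 had an unadjusted p under 0.05, and DESeq2 called 0. Against PL×SB, 0 genes were called (0%) and 1743 had an unadjusted p under 0.05, and DESeq2 called 1. A set was made of the genes called for PL×PL in the edgeR model of all 72 libraries, at 1 CPM or more on average in PL×PL. In it, the median size of the log2 change was 0.497 in PL×PL, 0.395 in SB×SB, 0.459 in SB×PL and 0.396 in PL×SB. The set was chosen in PL×PL, which by itself favours PL×PL. Contraction genes had a median of 1.82 in PL×PL and 0.98 in SB×SB. For plasma protein genes the medians were 0.82 and 1.03, and for cell cycle genes -0.75 and -0.62. The PL×PL medians are from the fit of the 18 PL×PL libraries, and the SB×SB medians from the model of all 72. Of the members of these groups, 0 were called for a different change.

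Of the 28, 6 had a symbol. All 6 were higher in PL×PL, by 0.45 in ptpn14, a phosphatase named here after its value was seen, and by more in mlip, lamb2, cps1, gnl2 and fndc1. mlip, a muscle protein that binds lamin, had 11.4, 15.4 and 23.3 CPM in PL×PL and 5.61, 9.30 and 11.8 CPM in SB×SB at 200 τs, against 2.70, 4.16 and 5.10 CPM in PL×PL and 2.82, 4.40 and 6.37 CPM in SB×SB at 150 τs. The difference between the changes was 1.08 on the log2 scale (adjusted p = 0.0522), and was no longer called with siblings summed per family (1.09, adjusted p = 0.151). For lamb2 it was 0.79, with 75.3 to 121.7 CPM in PL×PL and 39.96 to 78.3 CPM in SB×SB at 200 τs, and 29.1 to 64.0 CPM in PL×PL and 26.4 to 66.9 CPM in SB×SB at 150 τs. cps1, the carbamoyl phosphate synthetase of the mitochondrion, rose in PL×PL (1.00 ± 0.15 in the fit of the 18 PL×PL libraries). It had a change of -0.20 in SB×SB in the model of all 72. fndc1, of the fibronectin type III family, differed by 1.42, and gnl2, a GTPase of the nucleolus, by 1.91. gnl2 was the 1 ribosome biogenesis gene that rose in PL×PL, yet its ranges of 7.15 to 15.8 CPM at 200 τs and 2.33 to 17.8 CPM at 150 τs overlapped widely, and the call was lost without H1516 and with no replicate block. Its call for a difference from SB×SB was also lost with no block, as was that of lamb2. The number called rested on single families, and was 95 with the letter of the embryo as a term. It was 0 without H1502 of SB×SB or H1509 of PL×PL, 2 without H1504, and 453 without H1503, and each of the 5 genes lost its call without H1502, H1504 or H1509.

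**Figure D5:**
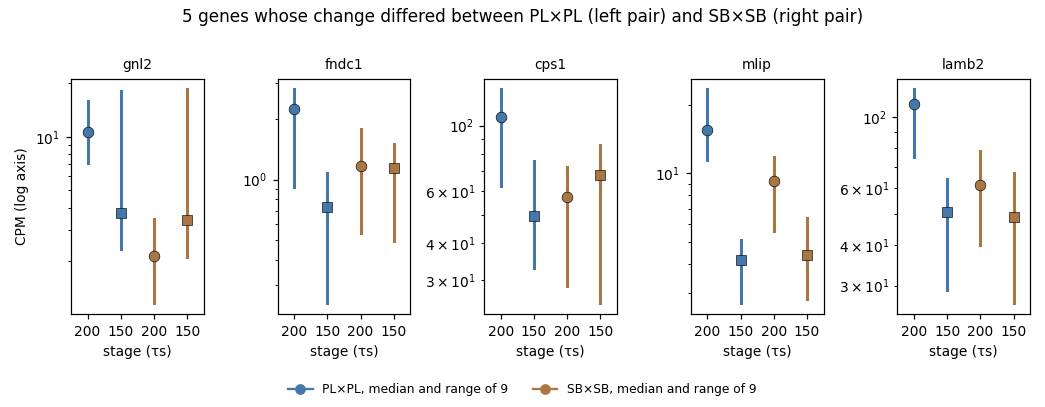
CPM of gnl2, fndc1, cps1, mlip and lamb2 in PL×PL (left pair in each panel) and SB×SB (right pair) at 200 and 150 τs, on log axes; points are medians and lines the range of 9 embryos. At 200 τs the medians were higher in PL×PL in all 5 genes, for example 15.4 and 9.30 CPM in mlip.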

How the data were processed

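Before deposit, the authors used STAR to align the reads (Salvelinus genome) and featureCounts to count, per gene, the fragments of which both ends mapped and which were not chimeric. Versions and the use of strand are not given in the sources used here, so overlapping and antisense genes cannot be told apart. They deposited raw counts, 1 column per embryo, with no normalization. The miRNA tables were not used. Library sizes were scaled with TMM, and genes with at least 10 reads over the 72 libraries were tested with edgeR 4.0.16 (quasi-likelihood, family as a block, Benjamini-Hochberg adjusted p under 0.1) in R 4.3.3 with limma 3.58.1. DESeq2 1.42.0 was an alternative. Gene groups and figures were made in Python 3.11.15 with pandas 2.3.3, numpy 2.4.6 and matplotlib 3.10.9. The tests were checked on simulated counts with the same random spread for all genes and no likeness between siblings. That check cannot show how the tests behave with the uneven spread and families of these data. The analysis, the members and the gene groups were chosen with earlier results of these data known.

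Families pair the stages because siblings share their parents. After removal of stage means, the deviations of a family at both stages correlated by 0.0934 in H1509, 0.290 in H1513 and 0.234 in H1516. Of the 72 pairs of libraries within a stage, 0 were identical. Genes were named by a rule, which took the 10 largest rises and 10 largest falls without overlap, the 5 largest gains and 5 largest losses in CPM, up to 3 members of each of the gene groups in each direction and their 2 most abundant members, the 5 largest differences from SB×SB in each direction, and the 3 smallest p for family by time, among annotated genes of at least 1 CPM. The rule gave 191 genes, of which 100 are named with values in the text and the others are not reported here, and 9 more were added after their values were seen. Members of a gene group that are named beside it as not called, as exceptions or at a low level were also picked after their values were seen. For the genes named as largest rises and falls, the lack of overlap was a condition of being named. At this depth, 1 CPM is 12.0 to 16.5 reads in a library. Alternatives were another scaling, filters, block, threshold or tool, siblings summed within a family, and leaving out each family.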

Additional observations from a re-analysis of the deposited data

Results flagged for a closer look

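Among 224 groups of 9 embryos whose values were checked, 13 held 1 embryo that lay far from the other 8 (a gap to the next embryo, relative to the range, above Dixon's 95% critical value). Chance flags about 1 in 20 groups. At 200 τs the embryo was highest in H1513C for ampd1 (5.72 CPM), H1509C for loxl4 (19.6 CPM) and H1516A for mpeg1 (8.78 CPM), and lowest in H1513C for sp8 (12.8 CPM). At 150 τs it was highest in H1513C for LOC111981097 (2.83 CPM), col16a1 (132 CPM) and foxi1 (7.07 CPM), in H1513A for ampd1 (0.434 CPM) and neurod6 (5.95 CPM), and in H1509A for gcg (2.06 CPM) and gata5 (6.71 CPM). It was lowest at 150 τs in H1513B for dkc1 (42.2 CPM) and in H1509A for the total count (12837417 reads). dkc1 kept its call without H1513.

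The change between stages differed among families, by edgeR's quasi-likelihood test with Benjamini-Hochberg adjustment, in 13 of the genes named. Over all tested genes the share was 0.749%. ero1a, tsc22d2 and acp7 were named for their small p in this same test. egln3, znf395, ankrd37, ppp1r3c, ak4 and plod1 belong to the low-oxygen group, put together after the pattern was seen. The count of 13 therefore follows largely from how the genes were chosen. The adjusted p was 0.000153 for ero1a, 0.00190 for tsc22d2, 0.00293 for acp7, 0.00313 for egln3, 0.00553 for znf395, 0.00740 for ankrd37, 0.0103 for gars, 0.0250 for ppp1r3c, 0.0252 for ak4, 0.0473 for nat10, 0.0542 for plod1, 0.0632 for utp4 and 0.0832 for myoc. H1509 had the change farthest from the others except in myoc, which encodes the extracellular protein myocilin and rose by 3.37 in H1509, 1.94 in H1513 and 3.08 in H1516. The glycyl-tRNA synthetase gars fell by 1.09 in H1509, 0.24 in H1513 and 0.25 in H1516.

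The change differed between PL×PL and SB×SB by 1.91 on the log2 scale in gnl2, 1.42 in fndc1, 1.16 in cps1, 1.08 in mlip and 0.79 in lamb2, each higher in PL×PL. Each of these calls rested on single families.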

How the results depend on the processing

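The number of genes called between stages stayed within 1.5 times of 20115 under other scalings, filters, blocks and tools (15819 to 20449, with siblings summed or without any 1 family included), and was 13053 (5517 lower) at an adjusted p under 0.01 and 4648 (4073 higher, 575 lower) with at least 2-fold change required. In families left out in turn, the counts were 15819 to 18590 in all, 7858 to 10137 higher and 7346 to 8453 lower. Without the replicate block, that is without family, 19827 genes were called, and with the letter of the embryo added to the block 20331 were called. Of the calls, 55.8% were higher with TMM, 52.3% with RLE and 47.4% with library totals alone, a setting chosen after seeing the data, as were those without single embryos (19176 called without H1509A at 150 τs, 18230 without H1509B and H1509C at 200 τs). Library totals alone moved the median of all genes by -0.07. Family by time was called for 525 genes with the letter in the block, 39 at an adjusted p under 0.01, and 0 to 498 without 1 family (0 without H1509, where 976 had an unadjusted p under 0.05, 498 without H1513 and 81 without H1516). For the change against SB×SB, 495 genes were called by DESeq2, 70 with a stricter filter on low counts, 14 with no replicate block, 95 with the letter in the block, 0 at an adjusted p under 0.01, and 0 to 453 without 1 family (171 without H1516). Against SB×PL, 1 gene was called with siblings summed and 0 to 1 without 1 family (1 without H1507). Against PL×SB, 1 gene was called by DESeq2 and 1 with siblings summed. With families left out, acp7 changed by -0.22 (without H1509) to 0.42, rpl12 by -0.24 to 0.073 (0.011 without H1513, 0.073 without H1516) and rps15a by -0.32 to 0.0019 (without H1516), so their signs turned. The causes of these shifts were not tested. Siblings of 3 families cannot show how PL×PL families vary at large, and genes under 1 CPM rest on few reads.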

Other observations

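Counts in other gene groups of PL×PL are given beside the 20.7% of genes with a symbol that rose and the 37.7% that fell. Of 90 genes of the cilium and centrosome, 48 fell and 4 rose at 200 τs (median -0.27). Of 86 solute carriers, 20 rose and 20 fell (median 0.03, or -0.04 with library totals alone), and of 37 genes of peroxisomes and fatty acid oxidation, 9 rose and 12 fell (median -0.04). In haem synthesis, 2 of 5 genes fell and 0 rose. abcb10, a transporter of the mitochondrial membrane needed in red cell precursors, had 23.9, 27.5 and 30.2 CPM (lowest, median and highest of 9 embryos) at 200 τs and 31.9, 50.6 and 100.3 CPM at 150 τs (-1.09 ± 0.19). hmbs, an enzyme of the same pathway, had 14.4, 17.7 and 19.4 CPM at 200 τs and 22.3, 31.5 and 51.9 CPM at 150 τs (-1.02 ± 0.14). Both genes were fully separate between stages.

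cldn18, a claudin of tight junctions in stomach and lung of mammals, had 1.04, 1.82 and 3.01 CPM at 200 τs and 0, 0.186 and 0.546 CPM at 150 τs (2.95 ± 0.31). gcg, for the pancreatic hormone glucagon, had 1.49, 2.96 and 5.44 CPM at 200 τs and 0.412, 0.485 and 2.06 CPM at 150 τs (2.09 ± 0.25), and overlapped through H1509A at 150 τs. Of 4 digestive enzyme and gut genes, 0 were called by edgeR's quasi-likelihood test. samhd1, which breaks down deoxynucleotides, fell by 1.05 (SE 0.13) and parp1, which senses DNA breaks, fell by 0.70 (SE 0.09), both without overlap. Among secreted signals, 1 of 9 rose and 3 fell, and wnt6 had 0.880, 1.66 and 1.82 CPM at 200 τs and 2.30, 2.84 and 4.12 CPM at 150 τs (-0.97 ± 0.16).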
